A study of Mus musculus with 6 samples.

Results

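The DNA replication genes described here are a list of 49 genes, from the origin recognition complex through the replicative helicase and polymerases to nucleotide supply and the E2F factors. All 49 had a row in the table of 25416 genes, found by gene symbol. RNA came from AML12, a hepatocyte line from a mouse that carried a transgene for human TGF alpha, a growth factor of the EGF family. Cells received siRNA against Setdb1 (siSetdb1, n = 3), which encodes a histone H3 lysine 9 methyltransferase, or a scrambled RNA (siNC, n = 3). Both groups were harvested 72 h after transfection at a stated siRNA amount of 50, with the unit written as nm. The comparison asks which transcripts differ when Setdb1 mRNA is reduced. Whether replicates were separate cultures is not labelled. The p-values weigh the group difference against the spread within groups, which may be only technical.

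Before a cell copies its DNA, the origin recognition complex (ORC), CDC6 and CDT1 load the MCM2-7 helicase on chromatin, a step called licensing. CDC45 and the GINS complex then switch the helicase on, and polymerases, the sliding clamp PCNA and its loader RFC, and the single-strand binding protein RPA build the fork. Many of these genes are transcribed as cells enter S phase under E2F factors, so that cultures of dividing cells hold more of their mRNA than resting liver does.

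Setdb1 itself had 4.29, 4.21 and 3.29 FPKM in siSetdb1 against 8.41, 8.54 and 9.43 FPKM in siNC (log2 fold change -0.995, SE 0.10, limma adjusted p = 0.00183). The unit, FPKM, scales reads by exon length and by the library's total, and the libraries held 16790582 to 17835060 reads. The hepatocyte factor Hnf4a was present at 29.9 ± 2.6 FPKM in siSetdb1 and 34.7 ± 4.1 FPKM in siNC (SD, n = 3 each), whereas the hepatocyte genes Cps1 and Serpina1a stayed at or below 0.159 FPKM in every library. Of 13 hepatocyte markers 12 had a row and 10 were tested. Ttr and Trf fell (log2 fold changes -1.91 and -1.39, limma adjusted p = 0.0247 and 0.00817), Krt18 rose (0.30, 0.0364), and Alb and Apoa1 did not pass at -1.23 and -1.45. Of 5 cholangiocyte markers 4 had a row. Krt7 and Sox9 rose (0.50 and 0.78, limma adjusted p = 0.00827 and 0.0068), Spp1 fell (-0.92, 0.00689), and Krt19 averaged 1353 ± 84 FPKM in siSetdb1 and 1300 ± 127 FPKM in siNC. Summed over 5 endothelial markers the libraries had 0.118 to 0.193 FPKM in siSetdb1 and 0.0553 to 0.122 FPKM in siNC. The sum over 8 stellate cell and fibroblast markers, of which 7 had a row, was 0.955 to 1.36 FPKM in siSetdb1 and 0.711 to 0.757 FPKM in siNC. Of 6 macrophage markers 5 had a row, and their sum was 37.7 to 44.5 FPKM in siSetdb1 and 51.7 to 61.1 FPKM in siNC, most of it Cd14. Ptprc, the pan-leukocyte marker, did not exceed 0.0096 FPKM. Pecam1, Tek, Col3a1, Pdgfrb, Acta2 and Dcn were at 0 in all siSetdb1 libraries and had 0 to 3 reads in each siNC library. Col1a1, Pdgfra, Des and Cdh5 did not overlap between the groups and averaged 0.231, 0.142, 0.742 and 0.132 FPKM in siSetdb1, against 0.148, 0.0371, 0.472 and 0.0466 FPKM in siNC. Acta2, Tek, Csf1r and Lyz2 were lower in siSetdb1 without overlap. Of these genes only Des was tested, and Col1a1, Pdgfra and Cdh5 had 2 to 29 reads per library. Among all genes tested, 17.6% were higher and 21.6% lower without overlap. Cd14 and Cd68 fell (-0.36 and -0.84, limma adjusted p = 0.0467 and 0.012). The part of other cell types in the results was not tested.

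Most replication genes had a lower mean in siSetdb1, by modest amounts, and most did not pass the test. All 49 passed the filter on low values (at least 0.5 FPKM in 3 or more libraries). At an adjusted p below 0.05 (limma on log2(FPKM + 1), Benjamini-Hochberg over all genes tested), there were 9 members that fell, 1 that rose and 39 others. Over all 12846 genes tested, 15.1% passed. Of the members 18.4% fell, beside 8.27% of all genes, and 2.04% rose, beside 6.87% of all genes. The log2 fold change of siSetdb1 over siNC was below 0 for 41 of 49 members, and for 53.3% of all genes. Its median over the members was -0.21, beside -0.02 over all genes tested. The 3 siSetdb1 libraries lay below all 3 siNC libraries for 18 members, the 9 that fell and 9 that did not pass, which is 36.7% of members beside 21.6% of all genes. They lay above them for 1 member, E2f2, beside 17.6% of all genes. In bulk RNA, a smaller share of cells in S phase and less mRNA per cell cannot be told apart.

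**Figure D1:**
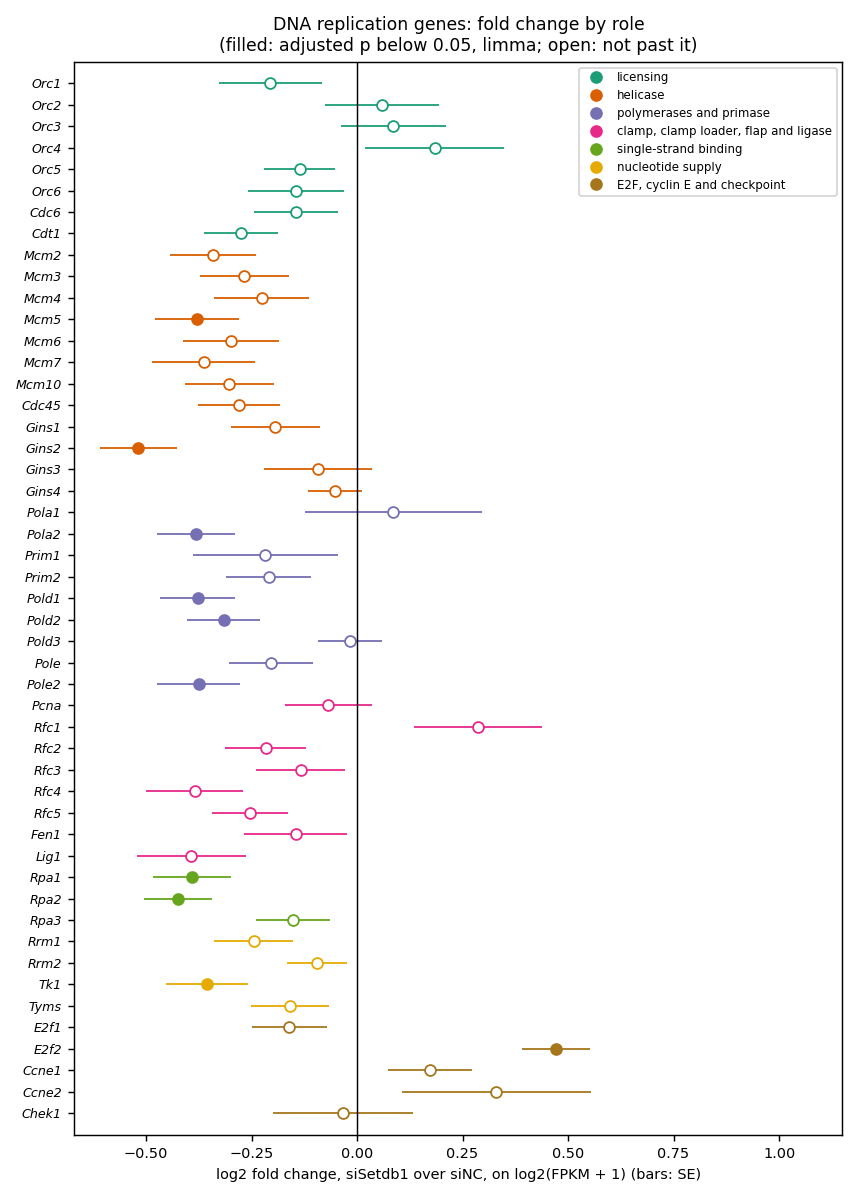
Log2 fold change (siSetdb1 over siNC, from log2(FPKM + 1)) of the 49 genes (points, with SE as bars), ordered and coloured by role, with filled points for adjusted p below 0.05. All 12 helicase genes lie left of 0 (Gins4 is at 0.0451 with GC and length trends removed, and Gins3 at 0.0215 without siNC replicate 2), and E2f2 lies farthest right, at 0.47.

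The number that fell depended on single libraries. It was 9 with all 6 libraries. Leaving out siNC replicate 1, 2 or 3 gave 6, 1 and 7, and leaving out siSetdb1 replicate 1, 2 or 3 gave 0, 7 and 1. In the limma fit without siSetdb1 replicate 1, 14 members (28.6%) were lower at an unadjusted p below 0.05, beside 13.8% of all genes. In 3 of the 6 fits a smaller share of members than of all genes fell: 2.04% beside 4.47% without siNC replicate 2, 0% beside 2.54% without siSetdb1 replicate 1 and 2.04% beside 4.06% without siSetdb1 replicate 3. In the other fits the shares were 12.2% beside 8.37% without siNC replicate 1, 14.3% beside 5.92% without siNC replicate 3 and 14.3% beside 2.55% without siSetdb1 replicate 2. The median over the members stayed below 0 in each of these fits, from -0.28 to -0.14.

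None of the 8 licensing genes passed the test in limma or in limma-voom on recovered reads, and 1 (12.5%) was lower at an unadjusted p below 0.05 in each, beside 18.3% and 18.6% of all genes. With GC and length trends removed, Orc5 passed (log2 fold change -0.30, limma adjusted p = 0.0284). These genes mark origins and load the helicase. Cdt1, the loading factor that is destroyed once S phase begins, had 22.0, 25.2 and 20.6 FPKM in siSetdb1 against 28.1, 28.2 and 26.2 FPKM in siNC. All siSetdb1 libraries were below all siNC libraries, and the log2 fold change was -0.28 (SE 0.09, limma adjusted p = 0.0711). Its partner Cdc6, an ATPase that works with ORC, had 7.02, 8.79 and 6.77 FPKM in siSetdb1 and 8.37, 8.70 and 8.07 FPKM in siNC. The siSetdb1 replicate 2 library exceeded every siNC library for Cdc6, and the log2 fold change was -0.15 (SE 0.10, limma adjusted p = 0.352).

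The 6 ORC genes did not share a direction. Their summed level was 55.9 ± 5.1 FPKM in siSetdb1 and 56.9 ± 8.3 FPKM in siNC. Orc1, the subunit whose gene is under cell cycle control, averaged 2.49 ± 0.53 FPKM in siSetdb1 and 3.00 ± 0.30 FPKM in siNC. Orc5 averaged 5.47 ± 0.40 and Orc6 17.7 ± 2.5 FPKM in siSetdb1, against 6.11 ± 0.49 and 19.7 ± 2.0 FPKM in siNC. Orc2, Orc3 and Orc4 had log2 fold changes above 0, of 0.06, 0.09 and 0.18, with SE of 0.14, 0.12 and 0.16. For these 3 genes siNC replicate 1 was low, and without it the values were -0.09, -0.05 and -0.02.

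All 12 helicase genes had a log2 fold change below 0, beside 53.3% of all genes. Exceptions under alternatives were Gins4 once GC and length trends were removed (0.0451) and Gins3 without siNC replicate 2 (0.0215). Of the 12 genes 2 fell (16.7%, beside 8.27% of all genes). In limma 8 were lower at an unadjusted p below 0.05 (66.7%, beside 18.3% of all genes). The helicase unwinds the double strand ahead of the polymerases. Gins2 (ENSMUSG00000031821, chromosome 8, 120578633 to 120589304 of mm10, minus strand), a subunit of the GINS complex, had 3.01, 3.56 and 3.01 FPKM in siSetdb1 against 5.38, 5.09 and 4.55 FPKM in siNC. The groups did not overlap. The mean fell by 36.2%, with a log2 fold change of -0.52 (SE 0.09, limma adjusted p = 0.0113), and the adjusted p was 0.0552 without siSetdb1 replicate 1. Of the exon bases of Gins2, 67.3% also lie in exons of Gse1 on the other strand, and the protocol names no step that keeps strand. Gse1 averaged 2.75 ± 0.21 FPKM in siSetdb1 and 2.43 ± 0.06 FPKM in siNC and did not pass the test (log2 fold change 0.13, limma adjusted p = 0.313). The part of shared reads in the Gins2 value was not tested.

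The other GINS genes did not pass the test. Gins4 averaged 39.2 ± 1.6 FPKM in siSetdb1 and 40.7 ± 1.2 FPKM in siNC, Gins1 17.8 ± 2.0 FPKM in siSetdb1 and 20.5 ± 2.1 FPKM in siNC, and Gins3 2.54 ± 0.26 FPKM in siSetdb1 and 2.80 ± 0.61 FPKM in siNC. The 4 proteins form a single complex. Per kilobase of summed annotated exon, their mRNA levels differed widely in both groups. That length is 4097 bases for Gins2, 2709 for Gins3, 1516 for Gins1 and 1349 for Gins4. FPKM compared between genes depends on this length.

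Mcm5 (ENSMUSG00000005410, chromosome 8, 75109569 to 75128439, plus strand) was the MCM2-7 gene that passed in the limma fit of all 6 libraries. It had 33.8, 40.4 and 33.1 FPKM in siSetdb1 against 50.7, 46.6 and 42.8 FPKM in siNC. The highest siSetdb1 library, replicate 2, lay just under the lowest siNC library. The mean fell by 23.5% (log2 fold change -0.38, SE 0.10, limma adjusted p = 0.0422), and the call was lost on leaving out siNC replicate 1 (limma adjusted p = 0.0653) or 2 (0.0996), or siSetdb1 replicate 1 (0.147) or 3 (0.121). Mcm2 had 25.6, 30.8 and 25.0 FPKM in siSetdb1 against 37.0, 35.4 and 31.3 FPKM in siNC, again without overlap (log2 fold change -0.34, SE 0.10, limma adjusted p = 0.0597). Mcm7 had 50.7, 59.2 and 46.1 FPKM in siSetdb1 and 71.8, 72.2 and 57.4 FPKM in siNC, where siSetdb1 replicate 2 exceeded siNC replicate 3 (log2 fold change -0.36, SE 0.12, limma adjusted p = 0.0836). Mcm6 had 37.9, 43.9 and 34.1 FPKM in siSetdb1 and 47.3, 53.0 and 42.7 FPKM in siNC, with an overlap of the same kind (log2 fold change -0.30, limma adjusted p = 0.117). Mcm3 averaged 35.9 ± 4.5 FPKM in siSetdb1 and 43.3 ± 3.6 FPKM in siNC, and Mcm4 33.6 ± 4.8 FPKM in siSetdb1 and 39.3 ± 3.6 FPKM in siNC. Under alternatives other MCM2-7 genes passed. Mcm2 did so with limma-voom (adjusted p = 0.0355), the limma variance trend on recovered reads (0.0414) and GC and length trends removed (0.036). With the replicate block and these trends removed, Mcm2 (limma adjusted p = 0.0272), Mcm4 (0.0423), Mcm6 (0.0144) and Mcm7 (0.0138) passed. Mcm7 also passed without siNC replicate 3 (limma adjusted p = 0.0432). Mcm3 passed under no alternative.

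The 6 MCM genes held similar shares of their sum in both groups. Their summed level was 215, 254 and 199.8 FPKM in siSetdb1 against 288, 296 and 252 FPKM in siNC, so that siSetdb1 replicate 2 lay above siNC replicate 3. Mcm7 made up 23.3% ± 0.2 of the sum in siSetdb1 and 24.0% ± 1.1 in siNC. Mcm2, the lowest per kilobase, made up 12.2% ± 0.3 in siSetdb1 and 12.4% ± 0.4 in siNC. Summed exon length is 6956 bases for Mcm2 and 3589 for Mcm4. By recovered reads Mcm2 was not the lowest in any library, with 4316 against 2177 for Mcm4 in siNC replicate 1. Mcm3, Mcm4, Mcm5 and Mcm6 each held between 14.1% and 17.3% in either group, with mean shares that differed by less than 1 percentage point between the groups. Mcm10, which joins the helicase when it is activated, had 4.97, 5.96 and 4.39 FPKM in siSetdb1 against 6.56, 6.90 and 6.03 FPKM in siNC (log2 fold change -0.30, SE 0.11, limma adjusted p = 0.0935). Cdc45, the third part of the active helicase, had 8.09, 8.95 and 6.91 FPKM in siSetdb1 against 9.68, 10.5 and 9.40 FPKM in siNC (log2 fold change -0.28, SE 0.10, limma adjusted p = 0.0941). Neither gene overlapped between the groups.

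E2F factors bind letters close to TTTCCCGC, TTTCGCGC, TTTGCCGC or TTTGGCGC, and promoters of replication genes are known for them. In RefSeq promoter windows (GRCm38.p6, 250 bases before to 50 after each start), at least 1 of these 4 runs was found on either strand for 16 of 41 members with a window (39.0%), beside 2.6% of all 27025 genes with a window. The runs can overlap each other and were counted separately. The following stretches are the 170 bases before the start, with these letters in capitals, shown because they set 3 helicase genes, 1 of which fell, beside 3 licensing genes, none of which passed. They lie at chr8:75109339-75109508 (plus strand), chr1:128359706-128359875 (minus strand), chr5:138171884-138172053 (minus strand), chr4:108579284-108579453 (plus strand), chr4:34614943-34615112 (minus strand) and chr11:98907981-98908150 (plus strand).
Mcm5: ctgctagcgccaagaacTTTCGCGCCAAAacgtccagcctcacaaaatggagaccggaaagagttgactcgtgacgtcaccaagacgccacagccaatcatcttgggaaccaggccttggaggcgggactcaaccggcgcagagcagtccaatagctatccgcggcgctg
Mcm6: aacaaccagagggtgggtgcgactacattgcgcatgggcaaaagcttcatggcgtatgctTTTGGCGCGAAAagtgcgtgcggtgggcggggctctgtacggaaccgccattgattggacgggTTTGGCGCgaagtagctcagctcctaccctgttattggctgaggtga
Mcm7: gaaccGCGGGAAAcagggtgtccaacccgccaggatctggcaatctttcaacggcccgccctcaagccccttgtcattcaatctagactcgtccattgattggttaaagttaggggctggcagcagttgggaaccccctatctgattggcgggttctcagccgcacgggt
Orc1: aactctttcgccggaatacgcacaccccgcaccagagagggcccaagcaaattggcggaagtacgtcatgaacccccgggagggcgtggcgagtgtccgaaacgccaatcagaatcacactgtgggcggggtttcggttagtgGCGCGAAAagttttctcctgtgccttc
Orc3: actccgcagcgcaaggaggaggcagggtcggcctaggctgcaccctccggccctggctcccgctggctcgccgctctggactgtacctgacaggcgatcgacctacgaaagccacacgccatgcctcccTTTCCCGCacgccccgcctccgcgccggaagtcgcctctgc
Cdc6: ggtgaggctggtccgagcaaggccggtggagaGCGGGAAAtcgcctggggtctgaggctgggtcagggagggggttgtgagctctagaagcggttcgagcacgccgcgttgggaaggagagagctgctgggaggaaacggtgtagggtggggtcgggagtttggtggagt

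In Mcm5 and Mcm6, 2 runs on opposite strands overlapped each other, beginning at position -153 from the start in Mcm5 and -110 in Mcm6. Mcm6 held another run at -47. Orc1, Orc3 and Cdc6, none of which passed the test, carried the letters as well. The letters did not separate the members by call: 3 of 8 members that fell and had a window held them (37.5%), as did 12 of 32 that did not pass (37.5%). The gene that rose, E2f2, also held TTTGGCGC, within the first 50 bases after the start of 1 of its 2 windows. A match is a description of letters and not a bound site. CCAAT was found for 24 of 41 members (58.5%) beside 41.1% of all genes, and TTTGAA, known from promoters of mitotic genes, for 6 of 41 (14.6%) beside 20.2%.

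**Figure D2:**
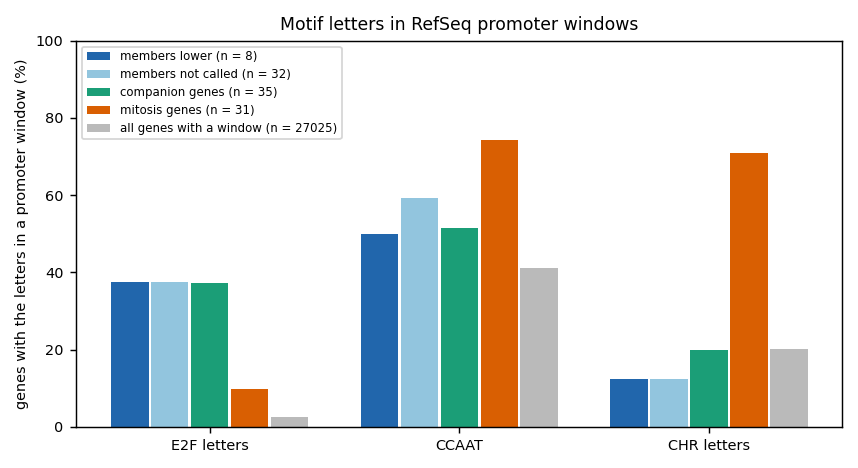
Percent of genes whose RefSeq promoter window holds the E2F letters, CCAAT or the letters TTTGAA (CHR) on either strand, for members that fell, members that did not pass, the companion and mitosis lists and all genes with a window. The bars for members that fell and that did not pass are equal for the E2F letters, at 37.5%.

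Among polymerase and primase genes, 4 of 9 fell (44.4%, beside 8.27% of all genes) and none rose (beside 6.87% of all genes). Pola2, the second subunit of polymerase alpha, which begins each new strand, had 10.1, 11.4 and 8.88 FPKM in siSetdb1 against 13.8, 13.4 and 13.1 FPKM in siNC. The groups did not overlap, and the mean fell by 24.6% (log2 fold change -0.38, SE 0.09, limma adjusted p = 0.0341). Pola1, the catalytic subunit of the same enzyme, had a log2 fold change of 0.09 (SE 0.21), with 2.67 FPKM in siNC replicate 1 and 5.56 and 4.74 FPKM in siNC replicates 2 and 3. Its mean was 4.51 ± 0.61 FPKM in siSetdb1 and 4.32 ± 1.49 FPKM in siNC. The primase genes Prim1 and Prim2 averaged 11.2 ± 2.4 and 7.99 ± 0.77 FPKM in siSetdb1, against 13.2 ± 2.3 and 9.40 ± 1.06 FPKM in siNC.

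Polymerase delta makes the lagging strand, and 2 of its 3 listed subunits fell, beside 8.27% of all genes. Pold1, its catalytic subunit, had 9.58, 11.2 and 9.61 FPKM in siSetdb1 against 14.2, 13.97 and 12.2 FPKM in siNC (log2 fold change -0.38, SE 0.09, limma adjusted p = 0.031). Pold2, which bridges the catalytic and accessory subunits, had 23.8, 26.7 and 25.8 FPKM in siSetdb1 against 35.2, 31.3 and 29.4 FPKM in siNC (log2 fold change -0.32, SE 0.09, limma adjusted p = 0.047). Neither gene overlapped between groups, whereas Pold3, the subunit that contacts PCNA, had 14.6 ± 0.9 FPKM in siSetdb1 and 14.8 ± 0.8 FPKM in siNC. Of polymerase epsilon, which makes the leading strand, the second subunit Pole2 had 3.82, 4.27 and 3.89 FPKM in siSetdb1 against 4.67, 5.96 and 5.86 FPKM in siNC. The mean fell by 27.4% (log2 fold change -0.38, SE 0.10, limma adjusted p = 0.0426). The catalytic subunit Pole averaged 7.87 ± 1.11 FPKM in siSetdb1 and 9.17 ± 0.16 FPKM in siNC (log2 fold change -0.20, limma adjusted p = 0.199).

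These 4 calls were close to the threshold. Without single libraries the adjusted p reached 0.12 for Pold1, 0.168 for Pold2, 0.144 for Pole2 and 0.114 for Pola2, in each case without siSetdb1 replicate 1. Pold2 passed in 1 of the 6 fits that leave out a library, Pole2 in 1, Pola2 in 2 and Pold1 in 3.

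**Figure D3:**
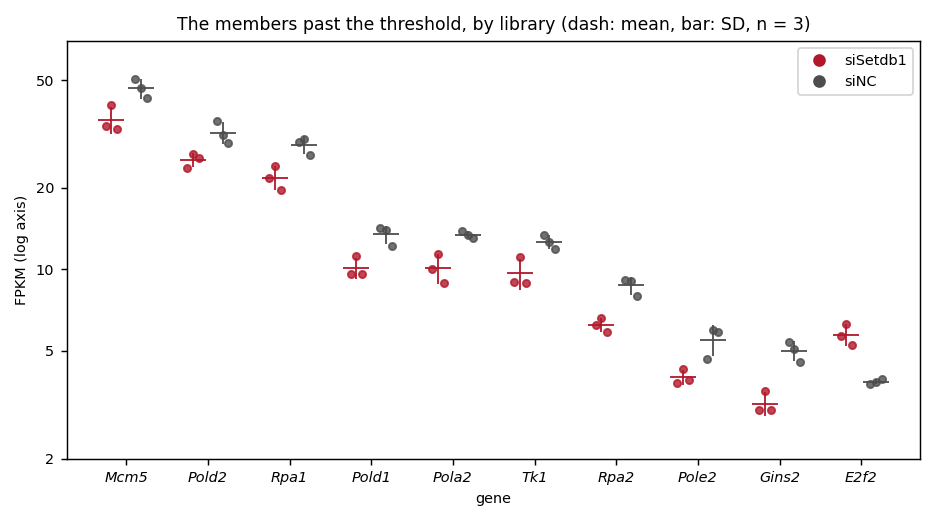
FPKM on a log axis in each library for the 10 members past the threshold, siSetdb1 left of siNC, with points for libraries, dashes for means and bars for SD (n = 3). The groups do not overlap for any of the 10, and E2f2 is the gene that is higher in siSetdb1.

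No gene of the clamp, its loader, the flap nuclease or the ligase passed the test in limma or limma-voom, where 3 and 4 of 8 were lower at an unadjusted p below 0.05, beside 18.3% and 18.6% of all genes. Pcna, the sliding clamp that holds polymerases on DNA, was among the most abundant members, with 95.2, 110.1 and 93.1 FPKM in siSetdb1 and 100.03, 117.9 and 95.3 FPKM in siNC. The ranges overlapped almost entirely (log2 fold change -0.07, SE 0.10, limma adjusted p = 0.685). The processed pseudogene Pcna-ps2 was listed at 88.3 ± 14.5 FPKM in siSetdb1 and 91.1 ± 9.1 FPKM in siNC, so that short reads may be split between the copies and the Pcna level is uncertain. Lig1, the ligase that seals the lagging strand, had 17.8, 21.7 and 15.7 FPKM in siSetdb1 and 25.5, 26.2 and 21.2 FPKM in siNC. The groups met, since siSetdb1 replicate 2 lay above siNC replicate 3 (log2 fold change -0.39, SE 0.13, limma adjusted p = 0.0781).

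Of the 5 clamp loader genes, 4 had lower means in siSetdb1 and 1 a higher one. Rfc4 had 8.12, 8.52 and 7.72 FPKM in siSetdb1 against 10.1, 13.3 and 9.68 FPKM in siNC (log2 fold change -0.39, SE 0.12, limma adjusted p = 0.0623), and it passed with the variance trend on recovered reads (adjusted p = 0.046) and with GC and length trends removed (0.0288). Rfc1, the large subunit, had 18.2, 19.7 and 16.3 FPKM in siSetdb1 and 11.2, 17.0 and 16.2 FPKM in siNC, with siNC replicate 1 far below the other libraries (log2 fold change 0.29, SE 0.15, limma adjusted p = 0.239). Without siNC replicate 1 the value for Rfc1 was 0.11. Rfc2, Rfc3 and Rfc5 averaged 9.02 ± 0.86, 8.09 ± 1.05 and 11.1 ± 1.2 FPKM in siSetdb1, against 10.7 ± 1.0, 8.96 ± 0.88 and 13.4 ± 0.9 FPKM in siNC. Fen1, the nuclease that trims Okazaki fragments, was by far the lowest member, at 0.366 ± 0.166 FPKM in siSetdb1 and 0.507 ± 0.116 FPKM in siNC. Only 11 to 25 reads per library stood behind Fen1, and 78.8% of its exon bases also lie in the antisense gene Gm10143. How reads that fit both genes were counted is not given in the sources used here, so the Fen1 level is uncertain. Exon bases are shared with another gene in 18 members. Among them are Orc2 (29.8%, with Nif3l1), Ccne2 (17.4%, with Ints8) and Rfc4 (12.7%, with Eif4a2, which averaged 29.1 FPKM). The part of shared reads in their values was not tested.

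Both larger subunits of RPA, which coats single-stranded DNA at the fork, fell. They are 2 of 3 RPA genes (66.7%, beside 8.27% of all genes). Rpa2 (ENSMUSG00000028884, chromosome 4, 132768332 to 132778752, plus strand) had 6.25, 6.59 and 5.88 FPKM in siSetdb1 against 9.15, 9.08 and 7.95 FPKM in siNC. The groups were clearly apart, and the mean fell by 28.5% (log2 fold change -0.42, SE 0.08, limma adjusted p = 0.0149). Rpa1, the largest subunit, had 21.8, 24.0 and 19.6 FPKM in siSetdb1 against 29.6, 30.4 and 26.5 FPKM in siNC (log2 fold change -0.39, SE 0.09, limma adjusted p = 0.0309). Rpa3 averaged 13.6 ± 0.4 FPKM in siSetdb1 and 15.3 ± 1.7 FPKM in siNC and did not pass (log2 fold change -0.15, limma adjusted p = 0.276). Both calls were lost in 3 fits: leaving out siNC replicate 2 gave limma adjusted p of 0.0526 for Rpa2 and 0.0901 for Rpa1, siSetdb1 replicate 1 gave 0.0645 and 0.105, and siSetdb1 replicate 3 gave 0.0546 and 0.091.

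Of 4 nucleotide supply genes, 1 fell (25%, beside 8.27% of all genes). Tk1, the thymidine kinase that recycles thymidine, had 8.99, 11.1 and 8.91 FPKM in siSetdb1 against 13.3, 12.6 and 11.9 FPKM in siNC. The groups did not overlap (log2 fold change -0.36, SE 0.10, limma adjusted p = 0.047), but the call held in 1 of 6 fits that leave out a library. Tyms, which makes thymidylate, averaged 7.74 ± 0.54 FPKM in siSetdb1 and 8.77 ± 0.96 FPKM in siNC. The ribonucleotide reductase genes differed in level per kilobase: Rrm2, the regulated subunit, was the most abundant member at 164.2 ± 9.2 FPKM in siSetdb1 and 175 ± 6 FPKM in siNC. Summed exon length is 2771 bases for Rrm2 and 11012 for Rrm1. Rrm1 averaged 17.8 ± 2.3 FPKM in siSetdb1 and 21.2 ± 0.6 FPKM in siNC (log2 fold change -0.25, limma adjusted p = 0.117), and that of Rrm2 was -0.09 (limma adjusted p = 0.39).

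E2f2 was the 1 member past the test that was higher in siSetdb1. It encodes a transcriptional activator of S phase genes, and it had 5.66, 6.30 and 5.26 FPKM in siSetdb1 against 3.78, 3.84 and 3.94 FPKM in siNC. Every siSetdb1 library lay above every siNC library, whose own values were close together. E2f2 (ENSMUSG00000018983, chromosome 4, 136172394 to 136196057, plus strand) rose by 0.47 on the log2 scale (SE 0.08, limma adjusted p = 0.0104). Its call held under all 14 alternatives run, with adjusted p between 0.0044 and 0.0469. Its relative E2f1 had 10.2, 11.3 and 10.4 FPKM in siSetdb1 and 11.1, 11.5 and 13.4 FPKM in siNC, with overlap (log2 fold change -0.16, SE 0.09, limma adjusted p = 0.255). E2f1 was thus the more abundant of both activators per kilobase in either group.

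Cyclin E drives entry into S phase, and neither of its genes passed. Ccne1 had 2.15, 2.77 and 2.44 FPKM in siSetdb1 and 2.15, 1.83 and 2.21 FPKM in siNC (log2 fold change 0.17, SE 0.10, limma adjusted p = 0.277). Ccne2 had 6.46, 8.23 and 6.00 FPKM in siSetdb1 and 3.32, 6.21 and 6.78 FPKM in siNC, with siNC replicate 1 standing apart from the other libraries (log2 fold change 0.33, SE 0.22, limma adjusted p = 0.351). Chek1, the kinase that responds to stalled forks, had 7.62, 9.73 and 6.92 FPKM in siSetdb1 and 6.35, 9.50 and 9.18 FPKM in siNC, a wide overlap (log2 fold change -0.03, SE 0.17, limma adjusted p = 0.91).

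The members varied together between libraries of the same group. Of the siSetdb1 libraries, replicate 2 was the highest for 45 of 49 members (91.8%), beside 37.3% of all genes tested, and replicate 3 the lowest for 41 (83.7%), beside 42% of all genes. In siNC, replicate 2 was the highest for 28 members (57.1%), beside 23.9% of all genes. On the log2(FPKM + 1) scale, the median deviation of the members from their means over the 6 libraries was -0.15, 0.04 and -0.22 in siSetdb1 replicates 1, 2 and 3, and 0.09, 0.19 and 0.06 in siNC replicates 1, 2 and 3. By this median over the members, siSetdb1 replicate 2 was nearer to siNC replicates 1 and 3 than to its own group. Over all genes tested it lay with its own group. On the first principal component it was at 19.6, with siSetdb1 replicates 1 and 3 at 17.0 and 12.5 and siNC at -26.7 to -10.8. What sets the libraries of a group apart was not tested.

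**Figure D4:**
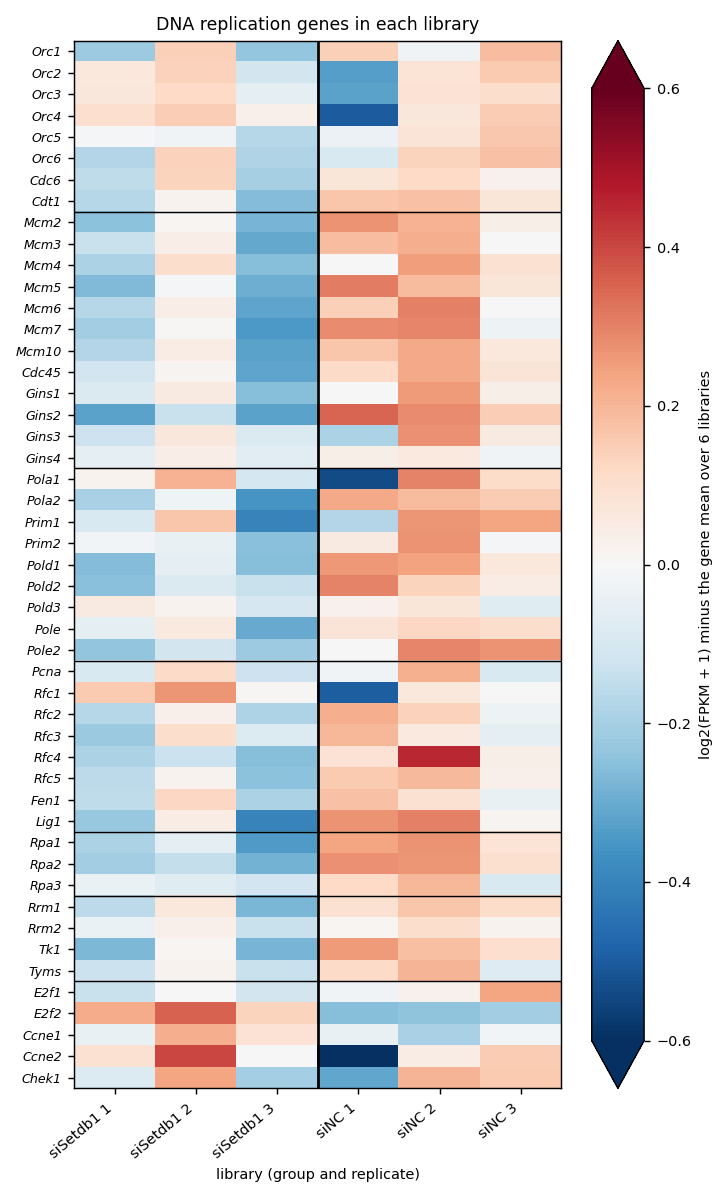
Log2(FPKM + 1) of each member minus its mean over the 6 libraries (colour), with members in rows by role and libraries in columns, siSetdb1 at the left. Replicate 2 is the warmest siSetdb1 column for 45 of 49 members, and siNC replicate 1 is dark blue for Orc4, Pola1, Rfc1 and Ccne2.

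A second pattern concerned siNC replicate 1, which stood apart over all genes on the first principal component, at -26.7 against -11.7 and -10.8 for siNC replicates 2 and 3. In 10 members (Orc2, Orc3, Orc4, Gins3, Pola1, Prim1, Pole2, Rfc1, Ccne2 and Chek1) it was below 0.8 of the mean of siNC replicates 2 and 3. Among all genes tested 19.9% were, close to the 20.4% of members. The longest transcripts of these 10 genes had a median GC content of 42.7%, against 49.3% for the other 39 members. Over all genes tested it was 42.8% for those under 0.8, and 49.5% for all of them. Without this library, 6 members fell, all among the 9 named above, and E2f2 rose. Mcm5, Pold2 and Tk1 no longer passed. For these genes siNC replicate 1 was at 1.13, 1.16 and 1.09 of the mean of siNC replicates 2 and 3. Gins2, at 1.12, still passed. With trends in GC content and gene length removed from each library, 14 members fell and E2f2 rose, while 11.6% of all genes fell.

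**Figure D5:**
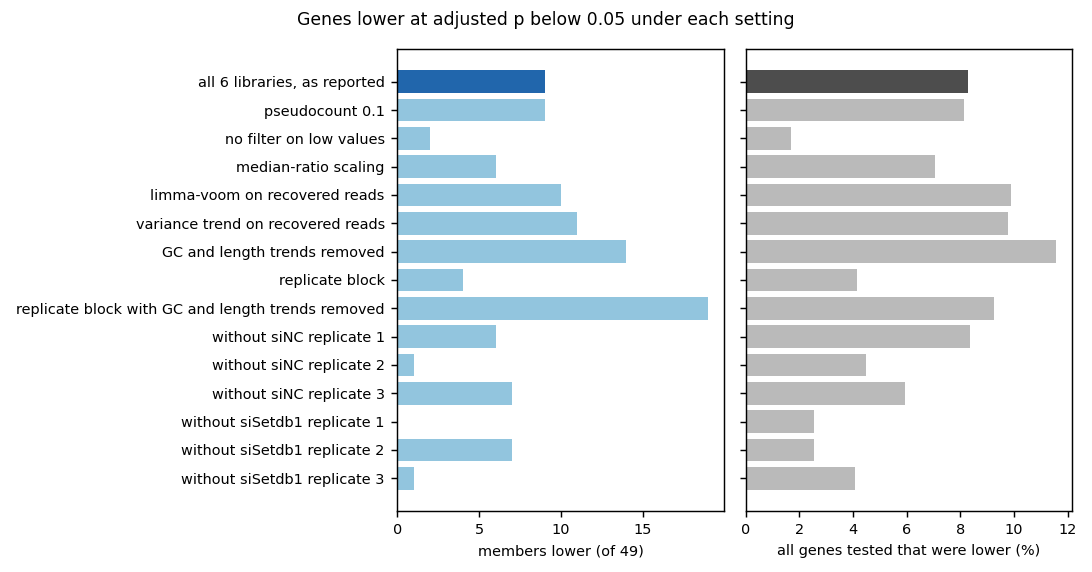
Number of the 49 members that fell (left) and percent of all genes tested that fell (right) at adjusted p below 0.05, with all 6 libraries as reported and under each alternative. The number of members ranges from 0 without siSetdb1 replicate 1 to 19 with a replicate block and GC and length trends removed.

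A companion list of 43 other replication genes, outside the 49, was examined in the same fit. Of these 41 were tested, and 2 fell (4.88%, beside 8.27% of all genes) and none rose. At an unadjusted p below 0.05, 8 were lower (19.5%, beside 18.3% of all genes) and 2 higher (4.88%, beside 13.9%). Limma-voom on recovered reads called 4 lower (9.76%, beside 9.87% of all genes) and 0 higher. Pold4 and Chtf8 did not pass the filter. Dtymk, the kinase that turns thymidylate towards dTTP, had 22.8, 27.0 and 21.4 FPKM in siSetdb1 against 34.3, 34.7 and 32.3 FPKM in siNC (log2 fold change -0.50, SE 0.09, limma adjusted p = 0.0142). Timeless, of the complex that protects the fork, had 7.55, 8.09 and 6.61 FPKM in siSetdb1 against 9.89, 10.3 and 9.45 FPKM in siNC (log2 fold change -0.37, SE 0.08, limma adjusted p = 0.0277). The median over the tested companion genes was -0.09.

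Of 38 mitosis genes, 5 fell (13.2%, beside 8.27% of all genes) and none rose, with a median of -0.17. The 5 were Bub1b, Plk1, Kif20a, Ccnb2 and Cdc20, which act in the spindle checkpoint, mitotic kinase signalling, cytokinesis, mitotic entry and anaphase. At an unadjusted p below 0.05, 12 mitosis genes were lower (31.6%, beside 18.3% of all genes) and 2 higher (5.26%, beside 13.9%). Limma-voom called 6 lower (15.8%, beside 9.87% of all genes) and 0 higher. Bub1b averaged 18.5 ± 0.9 FPKM in siSetdb1 and 25.3 ± 1.6 FPKM in siNC (log2 fold change -0.43, limma adjusted p = 0.0108). The siSetdb1 replicate 2 library was the highest of its group for 37 of these 38 genes and for 39 of the 41 companion genes. In siNC, replicate 1 was the lowest for 24 of the 38 mitosis genes (63.2%) and 20 of the 41 companion genes (48.8%), beside 37% of all genes tested. Without siNC replicate 1, 7 of the 38 mitosis genes fell, beside 8.37% of all genes. Whether the 49 members differ from either list was not tested.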

How the data were processed

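RNA of 6 samples was sequenced as single-end reads of 50 bases from oligo(dT)-selected mRNA, per the labels' protocols. Tools named without roles, per the submitters' processing notes, are RSEM 1.2.12, HISAT2 2.0.4, DESeq2 1.4.5 and Bowtie2 2.2.5, with build mm10. The deposited values are FPKM made by the authors. The table's headers name no unit: the values are whole multiples of 1 read over the summed exon length (GENCODE M21) and 1 total per sample, within 0.01 reads, for 98.6% of 25416 genes. Reads were recovered on that basis, for all 49 members.

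Groups came from sample titles. Genes reaching 0.5 FPKM in 3 libraries (12846) were tested with limma 3.58.1 (R 4.3.3) on log2(FPKM + 1) (trend and robust prior, two-sided, Benjamini-Hochberg, threshold 0.05). This scale understates changes of low genes. The fit was checked on simulated reads with the same extra spread for every gene, no GC or length trends and no outlying library. That check therefore cannot speak to false calls from such features of these data. Within groups, recovered reads differed beyond counting error (chi-square over its degrees of freedom, 4.69 to 23.9), so no library was taken as a copy. Alternatives changed the pseudocount, the filter, the scaling, the test (limma-voom or a variance trend on recovered reads), GC and length trends and the replicate block, and left out each library in turn. GC content is that of a gene's longest transcript.

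The members, lists and tests were chosen with earlier results of these data known. Values in every library are given for members past the threshold, the 10 next by absolute log2 fold change and 8 fixed members (E2f1, Pcna, Mcm2, Cdc6, Cdt1, Ccne1, Ccne2, Chek1). Promoter sequences are from RefSeq (GRCm38.p6), where 41 of 49 members matched.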

Additional observations from a re-analysis of the deposited data

How the results depend on the processing

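E2f2 passed under all 14 alternatives run and the median over the members kept its sign in each. Counts depended on settings. Genes past the threshold numbered 1945, and 890 with no filter on low values, 1015 with the replicate block, and 683 to 2176 with 1 library left out. They were 1062 lower and 883 higher, and 907 lower and 1019 higher with median-ratio scaling. Members that fell numbered 9, and 2 with no filter, 6 with median-ratio scaling (without Pold2, Pole2 and Tk1, at adjusted p of 0.0596, 0.0519 and 0.0528), 14 with GC and length trends removed, 4 with the replicate block, 19 with the replicate block and these trends removed, and 0 to 7 with 1 library left out. Companion genes that fell numbered 2, and 1 with no filter, 4 with limma-voom on recovered reads, 4 with GC and length trends removed, 4 with the replicate block and trends removed, and 0 to 3 with 1 library left out. Mitosis genes that fell numbered 5, and 1 with no filter, 9 with trends removed, 2 with the replicate block, 10 with the block and trends removed, and 1 to 7 with 1 library left out. Without the filter 25416 genes were tested in place of 12846, and the variance trend was fitted over all of them. The cause of the shifts in these counts was not tested. Log2 fold changes of genes that did not pass changed sign with trends removed, with or without the replicate block, for Orc3 (-0.0702), Orc4 (-0.0132), Gins4 (0.0451) and Pola1 (-0.0544), and with median-ratio scaling for Pold3 (0.00851). With 1 library left out they ranged across 0 for Orc2 (-0.0903 to 0.152), Orc3 (-0.0543 to 0.161), Orc4 (-0.0199 to 0.306), Gins3 (-0.211 to 0.0215), Pola1 (-0.161 to 0.258), Pold3 (-0.0573 to 0.0289), Pcna (-0.143 to 0.0219) and Chek1 (-0.198 to 0.0599). Lig1 passed with the replicate block (adjusted p = 0.0472, and 0.0197 with trends removed). Over 12846 genes, deviations of same-numbered libraries correlated with r = -0.157, 0.167 and -0.172, and not every sample correlated best with its own number. Over the members, replicate 2 had the highest and replicate 3 the lowest median deviation in both groups. These values do not settle whether same-numbered samples were paired. Depth limits Fen1, at 11 to 25 reads per library.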
